A study of Mus musculus with 18 samples.

Results

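The BCL2 family genes described here are 10 genes that control the mitochondrial step of apoptosis: the anti-apoptotic members Bcl2, Bcl2l1 and Mcl1, the effectors Bax and Bak1, and the BH3-only members Bid, Bad, Bbc3, Pmaip1 and Bcl2l11. They were picked by gene symbol, through Entrez ID, from a table of 24479 array features in mouse left ventricle, and all 10 were found, each as 1 feature. FFFF mice carried loxP sites in both alleles of Camk2g and Camk2d, the genes of the kinases CaMKIIγ and CaMKIIδ, and had no Cre; DKO mice carried the same floxed alleles together with α-MHC-Cre, which the methods describe as a cardiomyocyte-specific driver, so that other cells of the heart keep both kinases. All mice were of a mixed 129/Sv and C57BL/6 background, and the methods give an age of 10 to 15 weeks at surgery for DKO mice. Each genotype was measured after sham surgery, and after ischemia/reperfusion (I/R: 60 min of occlusion of the left anterior descending artery, then reperfusion) at 1 day and at 5 days, with 3 arrays in each of the 6 groups and 18 in all. Sham samples were left ventricle and I/R samples were the ischemic area of it. The labels name no litters or individual animals, so p-values measure only the spread between the arrays of a group.

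BCL2 family proteins decide whether the outer mitochondrial membrane stays intact. BAX and BAK1 form pores in it and release cytochrome c, BCL2, BCL-xL (the product of Bcl2l1) and MCL1 hold them in check, and the BH3-only proteins BID, BAD, PUMA (Bbc3), NOXA (Pmaip1) and BIM (Bcl2l11) either activate the effectors or occupy the anti-apoptotic proteins. Cardiomyocytes are rich in mitochondria, and the pathway is a known route of their death after ischemia and reperfusion. Much of the control of these proteins is by phosphorylation, cleavage and turnover, none of which a transcript level shows.

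Values are log2 expression values after RMA, so a difference of 1 is a doubling, and they do not rank one gene against another, since each gene has its own probes. Differences were tested with limma in one model of the 6 groups, and p-values were adjusted over all 24479 features. Differences are given with their standard error (SE), and a difference was called where its adjusted p was under 0.05.

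Of the 10 members, 9 had a promoter window in RefSeq (GRCm38.p6), and Pmaip1 had none. There were 15 windows in all because several genes have more than 1 start. The 250 bases before the start of Bcl2 and of the upstream start of Bcl2l11 are printed because Bcl2 was the member that differed most between the genotypes in sham hearts and Bcl2l11 the one with the widest swing over time in FFFF hearts. Both lie just outside the annotated gene, that of Bcl2 at chr1:106714291-106714540 on the minus strand and that of Bcl2l11 at chr2:128125788-128126037 on the plus strand. Both are written 5′ to 3′, with a match to the FOXO motif TGTTTAC, on either strand, in capitals.
Bcl2: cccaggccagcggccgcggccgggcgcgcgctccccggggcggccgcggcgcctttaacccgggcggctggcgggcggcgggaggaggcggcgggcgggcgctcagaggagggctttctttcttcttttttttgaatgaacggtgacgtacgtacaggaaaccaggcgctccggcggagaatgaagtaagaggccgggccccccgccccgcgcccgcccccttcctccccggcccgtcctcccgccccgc
Bcl2l11: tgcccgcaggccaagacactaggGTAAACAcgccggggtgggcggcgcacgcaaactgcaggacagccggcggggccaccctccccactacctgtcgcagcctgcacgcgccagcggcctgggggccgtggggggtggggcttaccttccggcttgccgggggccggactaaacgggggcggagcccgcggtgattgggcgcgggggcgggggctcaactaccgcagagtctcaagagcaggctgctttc
The Bcl2 window was 74.8% G or C with 36 CpG, and the Bcl2l11 window 72.0% with 24, against medians of 52.4% and 6 CpG over all 32851 promoter windows. Over the 15 windows of the family the medians were 64.4% and 21 CpG. The FOXO motif stood in 3.17% of all windows and in 2 of the 15 of the family, 227 to 221 bases before the start of Bcl2l11 and 167 to 161 bases before a start inside Bbc3. These 2 stretches, of 27 bases each, are at chr2:128125801-128125827 and chr7:16310084-16310110 on the plus strand.
Bcl2l11: agacactaggGTAAACAcgccggggtg
Bbc3: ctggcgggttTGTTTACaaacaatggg
The STAT motif TTCNNNGAA (7.02% of all windows), the cyclic AMP response element TGACGTCA (1.55%) and the p53 site (0.06%) had no match in the 15 windows. Pmaip1, which had no window, was not searched. The NF-kappa B motif (7.25% of all windows) matched in 2 of them, 1 of Bcl2l1 and 1 of Bbc3, other windows than those with the FOXO motif. All motifs were searched on both strands. A match is only a run of letters in a window, and no binding was measured.

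One array did not have the levels of the deleted kinase genes that its label implies. The array labelled replicate 1 of DKO at 1 day had a Camk2d of 9.71 and a Camk2g of 7.10. Replicates 2 and 3 of this group lay lower, with Camk2d at 7.90 and 8.31 and Camk2g at 5.99 and 6.21. FFFF arrays ranged from 9.27 to 9.85 for Camk2d and from 6.76 to 7.70 for Camk2g, so this array lay within the FFFF range for both genes. DKO sham arrays had Camk2d between 9.10 and 9.27 and Camk2g between 5.46 and 5.87, and DKO arrays at 5 days had 8.42 to 8.87 and 6.04 to 6.46. Esr1, the estrogen receptor alpha gene, split the DKO arrays as well. It was between 9.72 and 11.91 in 6 of the 9 DKO arrays and at 4.83, 5.04 and 4.80 in the array labelled replicate 1 of DKO at 1 day and in DKO I/R 5 days replicates 1 and 2, within or near the 4.70 to 5.64 of the FFFF arrays. Member calls in DKO at 1 day, and from 1 to 5 days, are given with and without the array labelled replicate 1 of DKO at 1 day. Some results are also given without all 3 of the DKO arrays with low Esr1. Y-linked and Xist transcripts read 2 of the 3 arrays of each genotype at 5 days as male and all other arrays as female.

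Cardiomyocyte markers had high values in every array, and markers of neutrophils, macrophages and fibroblasts moved with I/R. The mean of 10 cardiomyocyte markers was 12.92 to 13.02 in the 6 sham arrays and 12.03 to 12.85 in the 12 I/R arrays. The mean of 10 neutrophil markers was 4.47 to 4.74 in sham arrays, 7.06 to 7.77 in FFFF at 1 day, and 7.92, 5.03 and 5.91 in DKO at 1 day, with the highest value in the array labelled replicate 1. The mean of 9 monocyte and macrophage markers was 6.14 to 6.80 in sham arrays, 7.13 to 8.29 at 1 day and 7.83 to 10.22 at 5 days. The mean of 8 fibroblast and myofibroblast markers was 8.73 to 8.86 in FFFF sham and 9.49 to 9.92 in DKO sham, 9.0 to 10.25 at 1 day and 10.99 to 11.81 at 5 days. The lists of T and NK cells, B cells, endothelial cells and smooth muscle had medians between -0.86 and 0.27 in the 4 comparisons of I/R with sham. In bulk tissue, fewer cells of a type and less RNA per cell cannot be told apart.

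In FFFF hearts, I/R was followed by higher Bax, Bak1 and Bad and lower Bcl2l11 at 1 day, and by higher Bax and Bad at 5 days. In DKO hearts, Bcl2l1 was higher and Bcl2l11 lower at 1 day, and no member passed the test at 5 days. At 1 day in FFFF, 4 of the 10 members passed, 3 higher and 1 lower, while 11.7% of all features passed (5.93% higher and 5.79% lower). At 5 days 2 members passed in FFFF, both higher, against 18.3% of all features (8.26% higher). From 1 to 5 days in FFFF, 1 member rose and 1 fell, while 6.25% of all features passed (3.05% higher and 3.2% lower). In DKO at 1 day 1 member rose and 1 fell, against 5.11% of all features (2.58% higher and 2.54% lower). At 5 days in DKO limma called 0 members and 6.07% of all features, 1 member had an unadjusted p under 0.05 against 23% of all features, and gene-wise analysis of variance also called none. From 1 to 5 days in DKO 1 member fell, against 4.59% of all features (2.14% lower). In FFFF the values of I/R and sham arrays did not overlap for 6 of the 10 members at 1 day and for 6 at 5 days, where 33.8% and 33.2% of all features had groups that did not overlap. These counts rest on few arrays: no member passed at 1 day in FFFF without sham replicate 2 or without I/R 1 day replicate 1, none at 5 days without I/R 5 days replicate 3, and none in DKO at 1 day without sham replicate 2 or the array labelled replicate 1. The median log2 difference of the 10 members was 0.21 at 1 day and 0.35 at 5 days in FFFF and 0.15 and 0.11 in DKO, while the median over all features lay between -0.02 and 0.01.

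**Figure D1:**
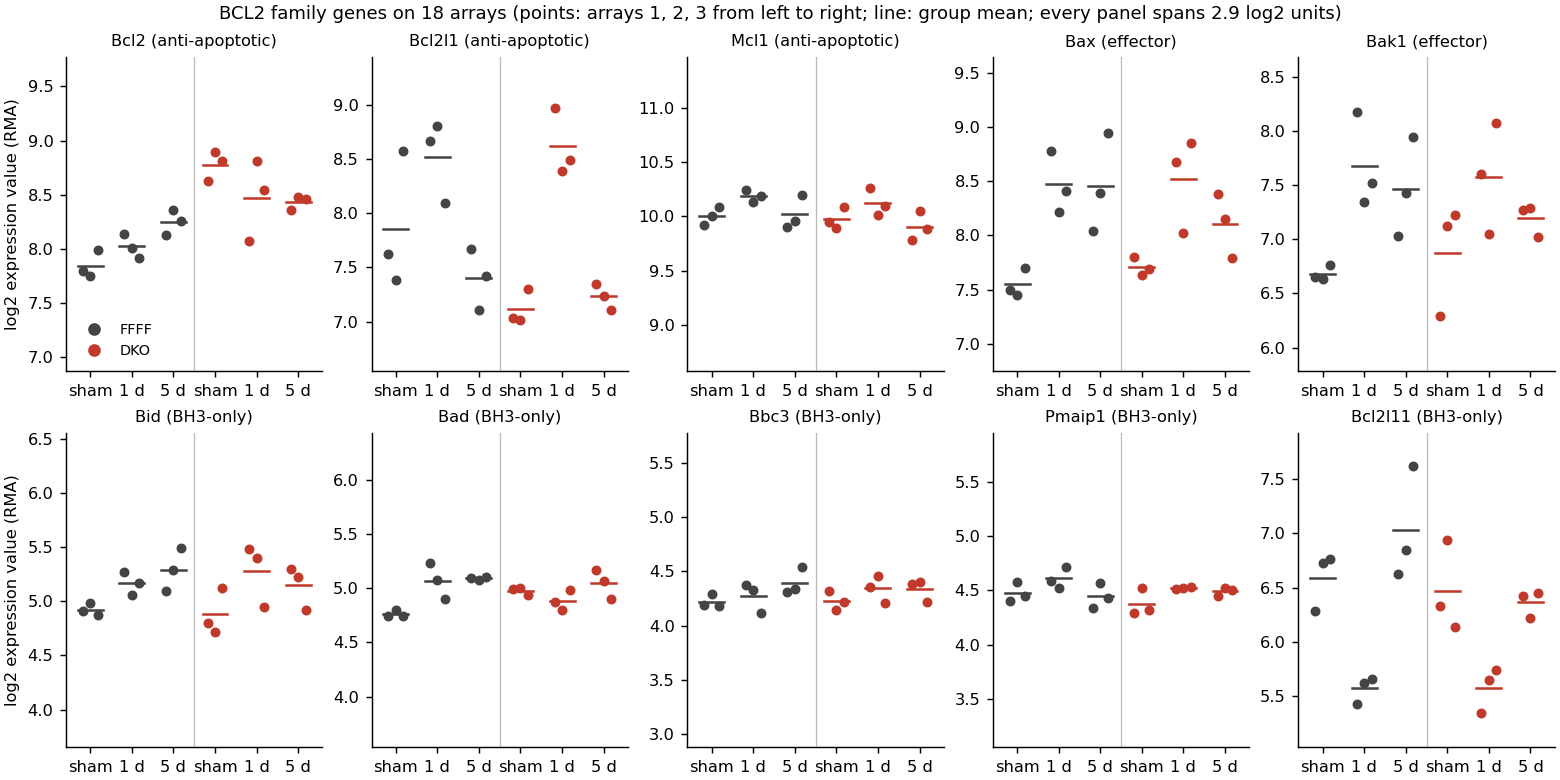
Log2 expression value (RMA, vertical axis) of each of the 10 BCL2 family genes on the 18 arrays, by group (horizontal axis: sham, I/R 1 day, I/R 5 days; FFFF in grey, DKO in red). Points are arrays, lines are means of 3 arrays, and every panel spans the same range; Bcl2l11 dips at 1 day to between 5.34 and 5.74 in both genotypes, and Bcl2 is at 8.63 or more in all 3 DKO sham arrays.

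Bcl2, the founding anti-apoptotic member, had a higher value in each DKO sham array than in any FFFF sham array, without passing the test over all features. It was 7.80, 7.75 and 7.99 in FFFF sham arrays and 8.63, 8.89 and 8.81 in DKO sham arrays. The 2 groups lay apart by more than the range within either. The difference was 0.93 (SE 0.14, 95% interval 0.62 to 1.24, 1.9-fold), and its adjusted p was 0.0893. Over all features, 2 passed in this comparison (0.00817%), and no member was among them, while 3 members had an unadjusted p under 0.05 (5.96% of all features). In a fit of the 2 sham groups alone the adjusted p was 0.0403 and with array weights it was 0.0145, whereas gene-wise analysis of variance gave 0.196. Leaving out the 3 DKO arrays that had low Esr1 removes no sham array, and the difference stayed at 0.93. Leaving out single sham arrays gave differences of 0.87 to 1.00 and adjusted p between 0.115 and 0.681. Markers of other cells also stood apart between these groups: the fibroblast mean was 9.49, 9.71 and 9.92 in DKO sham against 8.77, 8.86 and 8.73 in FFFF sham (list median 0.87, 0 of 8 called), and the macrophage mean 6.46, 6.80 and 6.55 against 6.19, 6.29 and 6.14 (list median 0.36, 0 of 9 called). The part of these cells in the Bcl2 values was not tested.

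After I/R the differences between the genotypes in Bcl2 were smaller. At 1 day Bcl2 was 8.14, 8.01 and 7.92 in FFFF, and 8.07, 8.81 and 8.54 in DKO, where 8.07 is the array labelled replicate 1 and the other 2 lay above all FFFF arrays. The difference was 0.45 (SE 0.14) with an adjusted p of 0.664, and 0.65 with an adjusted p of 0.0551 without that array. At 5 days FFFF arrays read 8.13, 8.36 and 8.26 and DKO arrays 8.36, 8.48 and 8.46, and the difference was 0.18 (SE 0.14, 95% interval -0.13 to 0.49, adjusted p = 1). Seen within a genotype, FFFF arrays at 5 days were all above FFFF sham (0.41, SE 0.14, adjusted p = 0.0666) and DKO arrays at 5 days all below DKO sham (-0.34, SE 0.14, adjusted p = 0.171). In a fit of the 2 DKO groups alone the latter passed, with an adjusted p of 0.0443. Leaving out the DKO arrays of low Esr1 removes no FFFF array, and the former stayed at 0.41. The difference between these 2 responses was -0.75 (SE 0.20), with an adjusted p of 0.999.

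Averaged over sham, 1 day and 5 days, Bcl2 was 0.52 (SE 0.08) higher in DKO, with an adjusted p of 0.137 in a comparison where 2 features passed (0.00817%). Without the array labelled replicate 1 of DKO at 1 day, the mean difference was 0.59 (SE 0.06) with an adjusted p of 0.00178, the third smallest p of all features, and 17 features passed (0.0694%). Without all 3 DKO arrays of low Esr1 it was 0.60 (SE 0.07) with an adjusted p of 0.0161, and 8 features passed (0.0327%). This averaged contrast was added after the values had been seen. Esr1 was the feature most like Bcl2 over the same 18 arrays (r = 0.811), so leaving out arrays by Esr1 was not independent of Bcl2. The 3 arrays left out had Bcl2 of 8.07, 8.36 and 8.48, and 8.07 and 8.36 were the lowest DKO values. That fit also leaves 1 DKO array at 5 days, so its larger difference and smaller p do not strengthen the result. In the order of group means, Bcl2 was highest in DKO sham (8.77), followed by DKO at 1 day (8.47), DKO at 5 days (8.43), FFFF at 5 days (8.25), FFFF at 1 day (8.02) and FFFF sham (7.85). Among neighbours in that order, DKO at 1 day and at 5 days differed by less than their spread.

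**Figure D2:**
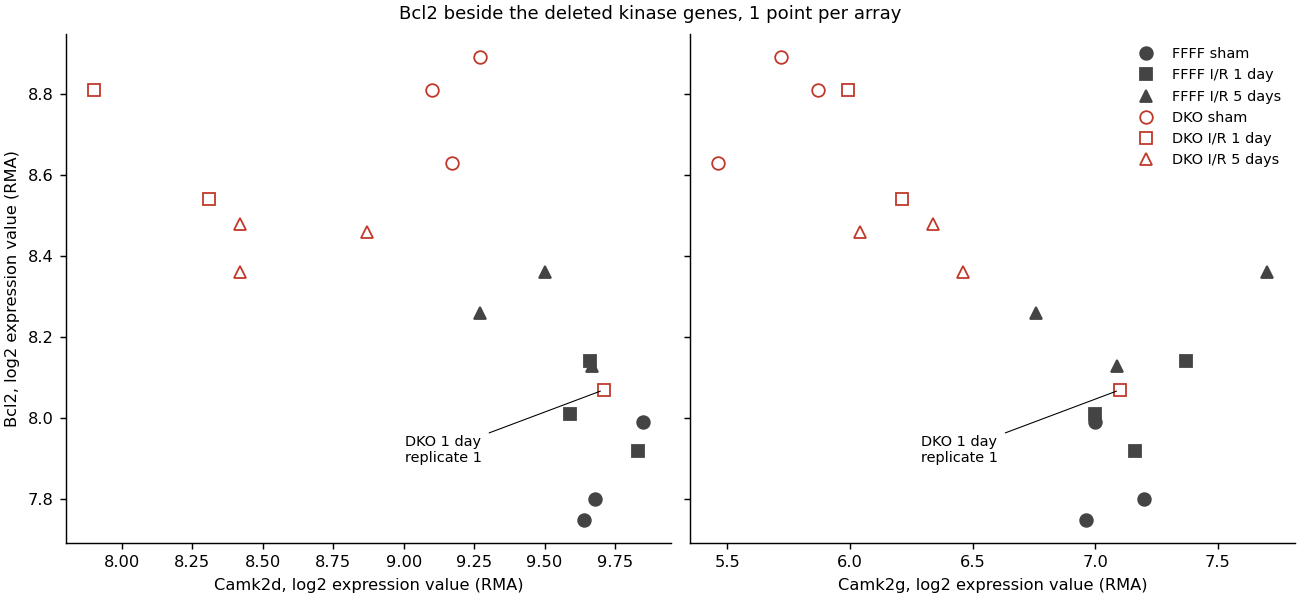
Bcl2 (vertical axis, log2 value) against Camk2d (left) and Camk2g (right, log2 values) with 1 point per array; filled grey symbols are FFFF and open red symbols DKO. The array labelled replicate 1 of DKO at 1 day, with Bcl2 of 8.07, Camk2d of 9.71 and Camk2g of 7.10, lies among the FFFF arrays. The 8 other DKO arrays have Bcl2 of 8.36 or more, and FFFF I/R 5 days replicate 2 also reads 8.36.

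Bcl2l1, which encodes BCL-xL, had its highest group mean at 1 day in both genotypes. In DKO it was 7.03, 7.01 and 7.30 after sham surgery, 8.97, 8.39 and 8.49 at 1 day and 7.35, 7.24 and 7.11 at 5 days. The 1 day arrays stood clear of both other groups. The rise at 1 day was 1.50 (SE 0.27, 2.83-fold, adjusted p = 0.0105), and the fall from 1 to 5 days was -1.39 (SE 0.27, adjusted p = 0.0138). Without the array labelled replicate 1, these were 1.33 and -1.21 with adjusted p of 0.0566 and 0.0674, and neither passed. The rise also did not pass without DKO sham replicate 2 (adjusted p = 0.0506). Of all 18 arrays, that labelled replicate 1 had the highest Bcl2l1, at 8.97.

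In FFFF hearts Bcl2l1 was 7.62, 7.38 and 8.57 after sham surgery, 8.67, 8.80 and 8.09 at 1 day and 7.67, 7.11 and 7.42 at 5 days. Sham replicate 3, at 8.57, lay within the range of the 1 day arrays. The fall from 1 to 5 days was called (-1.12, SE 0.27, adjusted p = 0.0261), and the difference between 1 day and sham was 0.66 (SE 0.27) with an adjusted p of 0.133. The fall did not pass without I/R 1 day replicate 1 or 2 (adjusted p = 0.0983 and 0.0861) or without I/R 5 days replicate 2 or 3 (0.115 and 0.074), nor with gene-wise analysis of variance (0.051), with sex as a covariate (0.0792) or in a fit of the 2 groups alone (0.0976). Without sham replicate 3, the difference between 1 day and sham was 1.02 with an adjusted p of 0.0246. The 3 DKO sham arrays were all below the 3 FFFF sham arrays (-0.74, SE 0.27, adjusted p = 0.715), and that difference was -0.38 without FFFF sham replicate 3. The 1 day response did not pass as different between the genotypes (0.84 larger in DKO, SE 0.38, adjusted p = 1).

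Mcl1, a short-lived anti-apoptotic protein that the adult mouse heart needs, was the steadiest of the 3. Its 18 values lay between 9.78 and 10.26, and its group means spanned 0.29. It was between 9.92 and 10.09 in FFFF sham and 10.24, 10.13 and 10.19 in FFFF at 1 day, without overlap, and the difference of 0.18 (SE 0.09) had an adjusted p of 0.246. In DKO the difference at 1 day was 0.15 (adjusted p = 0.389), and neither 5 day difference exceeded 0.08 in size.

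Both pore-forming effectors were higher at 1 day after I/R in FFFF hearts, and Bax also at 5 days. Bax was 7.50, 7.45 and 7.70 in FFFF sham arrays, 8.78, 8.22 and 8.41 at 1 day and 8.04, 8.39 and 8.94 at 5 days. All 6 I/R arrays were above the 3 sham arrays. The rise was 0.92 (SE 0.24, 1.89-fold, adjusted p = 0.0274) at 1 day and 0.90 (SE 0.24, 1.87-fold, adjusted p = 0.0193) at 5 days. On leaving out 1 array of the 2 groups, the call at 1 day held only without I/R 1 day replicate 2 (otherwise 0.77 to 0.99, adjusted p = 0.0528 to 0.131), and the call at 5 days was lost without sham replicate 1 or 2 or I/R 5 days replicate 2 or 3 (adjusted p = 0.0539 to 0.105) and in a fit of the 2 groups alone (0.0756). In DKO, Bax was 7.80, 7.63 and 7.69 in sham arrays, 8.68, 8.02 and 8.85 at 1 day and 8.38, 8.15 and 7.79 at 5 days. The 1 day arrays did not overlap with sham, and the difference of 0.81 (SE 0.24) had an adjusted p of 0.0665 (0.73 and 0.221 without the array labelled replicate 1), and that at 5 days was 0.40 (SE 0.24, adjusted p = 0.358). With array weights the DKO difference at 1 day passed (adjusted p = 0.0141). Bax did not differ detectably between the genotypes in how it responded: the DKO response was smaller by an estimated -0.11 at 1 day (95% interval -0.84 to 0.63) and -0.50 at 5 days (-1.23 to 0.23). Without the 3 DKO arrays of low Esr1 these were -0.19 (SE 0.37) and -0.82 (SE 0.43), and the 1 DKO array left at 5 days was 0.09 above the DKO sham mean.

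Bak1, the effector that sits in the outer mitochondrial membrane already in healthy cells, followed a similar course with a wider spread. It was 6.65, 6.63 and 6.76 in FFFF sham arrays, 8.17, 7.34 and 7.52 at 1 day and 7.03, 7.43 and 7.94 at 5 days. The rise at 1 day was 1.00 (SE 0.30, 2.00-fold, adjusted p = 0.0476), and the difference at 5 days was 0.79 (adjusted p = 0.0891). The call at 1 day was lost with the replicate number as a block (adjusted p = 0.0532) and without the DKO arrays of low Esr1 (adjusted p = 0.0865). It was also lost with sex as a covariate (adjusted p = 0.0547), with gene-wise analysis of variance (0.0775), and on leaving out each array of the 2 groups other than I/R 1 day replicate 2 (0.0916 to 0.212). In DKO, Bak1 was 6.29, 7.12 and 7.22 in sham arrays, 7.60, 7.05 and 8.07 at 1 day and 7.27, 7.29 and 7.02 at 5 days. These groups overlapped, and neither I/R difference passed (0.70, adjusted p = 0.194, and 0.32, adjusted p = 0.609). Over all 18 arrays Bax and Bak1 correlated at r = 0.885, the closest pair among the 10 members, as a description of arrays that share their groups.

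Markers of monocytes and macrophages, of fibroblasts and of neutrophils also had positive medians after I/R. From 1 to 5 days the macrophage median was 0.82 in both genotypes, and the fibroblast median 1.98 in FFFF and 1.91 in DKO. The neutrophil median over that time was -2.99 in FFFF and -1.75 in DKO. Bax differed by -0.01 in FFFF and -0.41 in DKO, and Bak1 by -0.21 and -0.38. In FFFF at 5 days the macrophage mean was 7.83, 9.09 and 10.22 in replicates 1, 2 and 3. Bax (8.04, 8.39, 8.94) and Bak1 (7.03, 7.43, 7.94) stood in the same order. So did the neutrophil (4.86, 5.01, 5.04) and T and NK cell means (4.54, 4.69, 5.23). The cardiomyocyte (12.85, 12.35, 12.03) and endothelial means (9.8, 9.61, 9.05) stood in the reverse order. Those of fibroblasts, B cells and smooth muscle stood in neither. In DKO at 5 days the macrophage means were 9.02, 8.58 and 8.46. Bax (8.38, 8.15, 7.79) stood in that order, and Bak1 (7.27, 7.29, 7.02) did not. In FFFF at 5 days all 9 measured macrophage markers rose against sham with a median of 2.98. At 1 day 5 of the 9 rose in FFFF (median 2.09) and 2 in DKO (median 1.05), and at 5 days 4 rose in DKO (median 1.93). Of the 8 fibroblast markers, 3 rose at 1 day (median 1.196) and 6 at 5 days (median 2.63) in FFFF, with means of 10.99, 11.81 and 11.60 in the 5 day arrays, while in DKO 0 rose at 1 day (median 0.50) and 5 at 5 days (median 2.19). Of the 10 neutrophil markers, 9 rose at 1 day in FFFF (median 3.205) and 1 in DKO (median 1.763), where the array means spread from 5.03 to 7.92. Between the genotypes at 1 day 0 of the 10 were called, in level (median -1.415) or in response. Of the 10 cardiomyocyte markers, 1 fell in FFFF at 1 day and 5 at 5 days. The part of these cells in the Bax and Bak1 values was not tested. Without FFFF I/R 5 days replicate 3, Bax was 0.66 above sham in FFFF (adjusted p = 0.105) and no member passed at 5 days.

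Bcl2l11, which encodes BIM, a BH3-only protein that can bind all the anti-apoptotic members and activate BAX, fell at 1 day in both genotypes. In FFFF it was 6.28, 6.73 and 6.76 in sham arrays, 5.43, 5.62 and 5.66 at 1 day and 6.63, 6.85 and 7.62 at 5 days. All 1 day arrays lay below all arrays of the other 2 groups. The fall at 1 day was -1.02 (SE 0.24, adjusted p = 0.0177), 0.492-fold of the sham level, and the rise from 1 to 5 days was 1.47 (SE 0.24, 2.76-fold, adjusted p = 0.00472), the only member difference with an adjusted p under 0.01. That rise kept its call without any single array of the 2 groups, with an adjusted p of 0.0251 at most, but lost it in a fit of these 2 groups alone. The fall at 1 day did not pass without sham replicate 2 or 3 (-0.95 and -0.94, adjusted p = 0.0715 and 0.0621) or without I/R 1 day replicate 1 (-0.95, adjusted p = 0.0821). The value at 5 days was 0.44 above sham (SE 0.24, adjusted p = 0.246).

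In DKO hearts Bcl2l11 was 6.33, 6.94 and 6.14 in sham arrays, 5.34, 5.65 and 5.74 at 1 day and 6.42, 6.22 and 6.45 at 5 days. The fall at 1 day was -0.89 (SE 0.24, 0.539-fold, adjusted p = 0.0477), and -0.78 with an adjusted p of 0.184 without the array labelled replicate 1. It was also lost without sham replicate 1 or 2 or I/R 1 day replicate 3 (adjusted p = 0.082 to 0.177), with gene-wise analysis of variance (0.0816) and in a fit of the 2 groups alone (0.121). From 1 to 5 days it was 0.79 higher (SE 0.24), with an adjusted p of 0.0801 and no overlap between the groups. At 5 days all 3 DKO arrays were below all 3 FFFF arrays (-0.67, SE 0.24, adjusted p = 1). The mean at 1 day was 5.57 in either genotype.

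FOXO transcription factors are known activators of Bcl2l11 in mouse cells. Foxo3 fell by 1.30 (SE 0.35, adjusted p = 0.029) and Foxo1 by 0.65 (SE 0.14, adjusted p = 0.0133) at 1 day in FFFF, the comparison in which Bcl2l11 fell, and the upstream Bcl2l11 window printed above holds the FOXO motif. In FFFF at 5 days Foxo3 (8.02 against 8.91) and Foxo1 (7.40 against 7.76) had means below sham. That of Bcl2l11 was above sham (7.04 against 6.59). In DKO at 1 day, where Bcl2l11 also fell, neither of the 2 FOXO genes passed. DKO means in sham, at 1 day and at 5 days were 8.58, 7.98 and 7.94 for Foxo3 and 7.80, 7.42 and 7.47 for Foxo1. For Bcl2l11 they were 6.47, 5.57 and 6.37. Whether the FOXO factors bear on Bcl2l11 was not tested.

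Bad, a BH3-only protein that growth factor signals hold inactive by phosphorylation, rose by a small amount in FFFF. It was 4.74, 4.80 and 4.74 in sham arrays, 5.23, 5.08 and 4.90 at 1 day and 5.09, 5.08 and 5.10 at 5 days. Both I/R groups lay above sham without overlap. The rise was 0.31 (SE 0.08, 1.24-fold, adjusted p = 0.027) at 1 day and 0.33 (SE 0.08, 1.25-fold, adjusted p = 0.0141) at 5 days. The call at 1 day was lost with a variance trend (adjusted p = 0.0678, and 0.0614 with robust moderation), in a fit of the 2 groups alone (0.0751), without any 1 of the sham arrays (0.0661 to 0.0802) and without I/R 1 day replicate 1 (0.23, adjusted p = 0.134). The call at 5 days was lost with sex as a covariate (0.26, adjusted p = 0.0989) and without I/R 5 days replicate 3 (adjusted p = 0.0537). These values are near the array median of 4.852, where signal is low. In DKO, Bad was 4.99, 5.00 and 4.94 in sham arrays, 4.87, 4.80 and 4.98 at 1 day and 5.17, 5.07 and 4.90 at 5 days, and neither I/R difference passed (-0.09, adjusted p = 0.563, and 0.07, adjusted p = 0.681). DKO sham was above FFFF sham by 0.22 (SE 0.08, adjusted p = 0.721), without overlap. The genotype difference of the 1 day response was -0.40 (SE 0.12) with an adjusted p of 0.972.

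Bid, which caspase 8 cleaves to link death receptors to the mitochondria, ranged from 4.72 to 5.49 on the 18 arrays. In FFFF it was 4.91, 4.98 and 4.87 in sham arrays, 5.27, 5.06 and 5.17 at 1 day and 5.09, 5.29 and 5.49 at 5 days. All I/R arrays were above sham, with differences of 0.25 (adjusted p = 0.342) and 0.37 (adjusted p = 0.107). In DKO the differences were 0.40 at 1 day (adjusted p = 0.132) and 0.27 at 5 days (adjusted p = 0.315), with overlapping groups.

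Bbc3 and Pmaip1, the p53-inducible BH3-only genes, had low values. Bbc3 ranged from 4.12 to 4.54 and was above the 40th percentile of its array in only 2 of 18 arrays, and Pmaip1 ranged from 4.29 to 4.72 and was above it in 13. Their I/R differences from sham lay between -0.03 and 0.18, and none passed. The largest, Bbc3 in FFFF at 5 days (0.18, adjusted p = 0.211), came with arrays of 4.31, 4.34 and 4.54 against 4.19, 4.29 and 4.18 in sham. Bbc3 did not pass a filter on low values, which Pmaip1 did. For Pmaip1 the 95% intervals in FFFF were -0.03 to 0.30 at 1 day and -0.20 to 0.13 at 5 days.

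**Figure D3:**
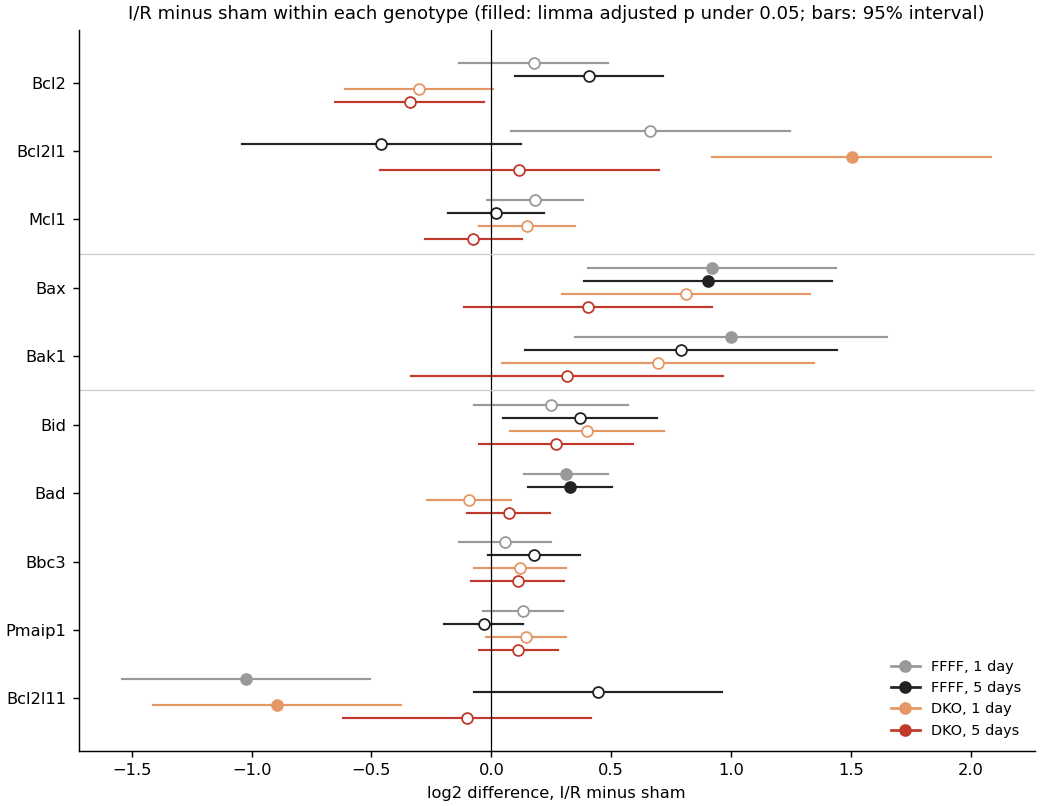
Log2 difference between I/R and sham (horizontal axis) for each of the 10 members, at 1 and 5 days in FFFF and DKO, with 95% intervals from limma; filled points passed at an adjusted p under 0.05. The filled points are Bax, Bak1, Bad and Bcl2l11 in FFFF at 1 day, Bax and Bad in FFFF at 5 days, and Bcl2l1 and Bcl2l11 in DKO at 1 day.

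The effector Bax was also set against the anti-apoptotic Bcl2 within each array, as the shift of their log2 difference from the sham mean of the same genotype. In FFFF the shift was 0.93, 0.51 and 0.79 at 1 day and 0.20, 0.33 and 0.97 at 5 days. In DKO it was 1.68, 0.28 and 1.38 at 1 day and 1.09, 0.74 and 0.40 at 5 days, against 0.24, -0.19 and -0.05 in DKO sham. All 12 I/R arrays were shifted toward Bax against Bcl2, the smallest by 0.20 and 0.28, beside 0.24 in a DKO sham array. The other anti-apoptotic members were not set against Bax in this way. At 1 day Bcl2l1 differed from sham by more than Bax in DKO (1.50 and 0.81) and by less in FFFF (0.66 and 0.92). At 5 days it differed by less in both, with -0.46 and 0.90 in FFFF and 0.12 and 0.40 in DKO. The mean shift at 1 day was 0.74 in FFFF and 1.11 in DKO, and at 5 days 0.50 and 0.74, with SDs of 0.22 to 0.74 (n = 3), so the genotypes overlapped. Each genotype was set to its own sham mean, so the shifts do not show that Bcl2 was higher in DKO sham. They do depend on that sham mean. Bcl2 differed from sham by -0.30 and -0.34 in DKO at 1 and 5 days, and by 0.18 and 0.41 in FFFF. The DKO minus FFFF difference was lower for Bax than for Bcl2 in sham (0.15 and 0.93). The same held at 1 day (0.05 and 0.45) and at 5 days (-0.35 and 0.18). In the DKO arrays at 1 day the largest shift was that of the array labelled replicate 1.

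Between the genotypes, no member passed in any of the 3 conditions. In sham hearts 3 of 10 members had groups that did not overlap (Bcl2 and Bad higher, Bcl2l1 lower in DKO), against 15.5% of all features. At 1 day limma called 0% of all features, no member had groups that did not overlap, against 9.82% of all features, and 2 had an unadjusted p under 0.05, against 6.7%. At 5 days 0% of all features passed as well, Bcl2l11 alone had groups that did not overlap, against 7.56%, and 1 member had an unadjusted p under 0.05, against 2.41%. The responses to I/R did not pass as different between the genotypes for any member: 3 members at 1 day and 2 at 5 days had an unadjusted p under 0.05, against 4.6% and 4% of all features, and 0.00409% and 0% of all features passed after adjustment. Gene-wise analysis of variance called no member in any of these comparisons.

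**Figure D4:**
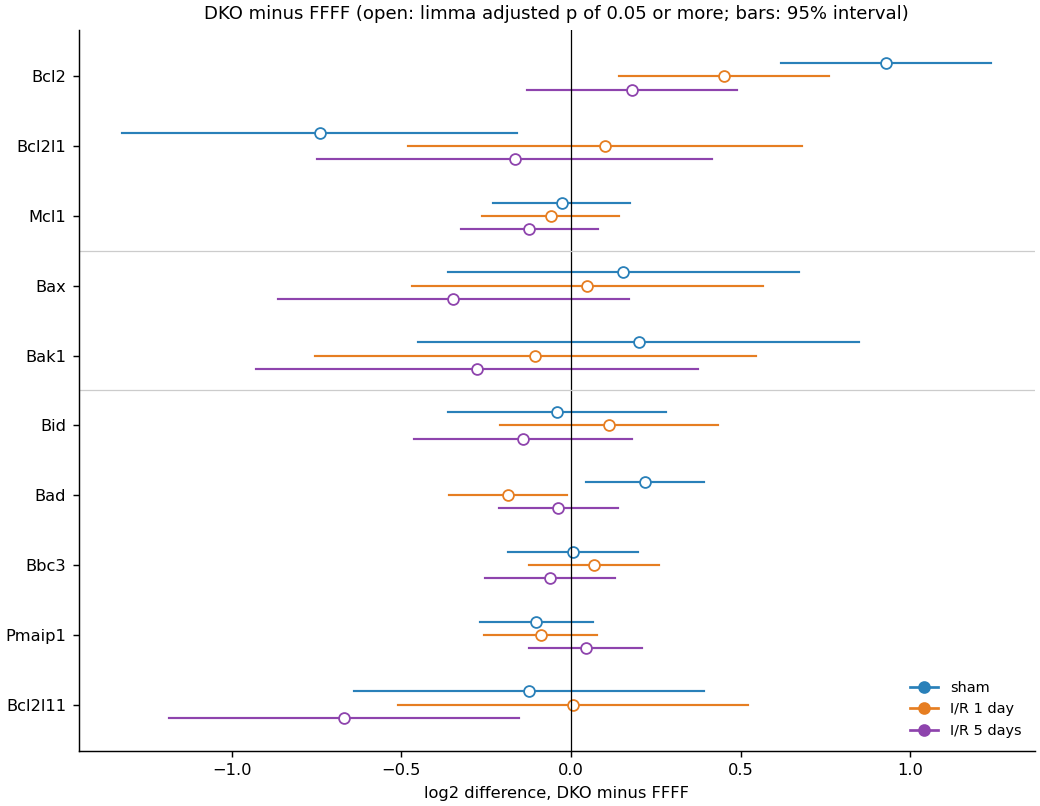
Log2 difference between DKO and FFFF (horizontal axis) for each of the 10 members in sham hearts, at 1 day and at 5 days, with 95% intervals from limma. All points are open because none passed at an adjusted p under 0.05; Bcl2 in sham hearts, at 0.93, is the farthest from 0.

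Among 15 other measured relatives of BCL2, 1 passed at 1 day and 5 at 5 days in FFFF, and 0 and 1 in DKO. Of all features, 11.7% and 18.3% passed in FFFF and 5.11% and 6.07% in DKO. Bcl2a1b, an anti-apoptotic relative found mainly in leukocytes, rose by 2.53 (SE 0.59, adjusted p = 0.0101) in FFFF and by 2.34 (SE 0.59, adjusted p = 0.0344) in DKO at 5 days. It is one of several near-identical mouse copies, so its signal may be shared with them. Bmf, a BH3-only gene, rose by 0.66 (adjusted p = 0.00634) and Bok, a BAX-like effector, by 0.61 (adjusted p = 0.0149) in FFFF at 5 days, while Bcl2l13, a mitochondrial relative that acts in mitophagy, fell by 1.10 (adjusted p = 0.00337). At 1 day Bnip3l, a mitophagy receptor, fell by 0.59 (adjusted p = 0.00831) in FFFF.

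Most of the 10 genes of the step that follows pore formation were lower at 5 days after I/R in FFFF hearts, apart from Apaf1. In FFFF, 4 fell and none rose at 1 day, and 7 fell and 1 rose at 5 days, against 11.7% and 18.3% of all features called. Cycs, which encodes cytochrome c, fell by 0.78 (SE 0.16, adjusted p = 0.0098) at 1 day and by 0.96 (SE 0.16, adjusted p = 0.00209) at 5 days. Its values lay between 4.12 and 5.48, near the array median of 4.852, where signal is low. Endog, a mitochondrial nuclease, fell by 1.07 and 1.35 (adjusted p = 0.0219 and 0.00468). At 1 day Casp9, the apoptosome caspase, fell by 0.36 (adjusted p = 0.0355) and Vdac3, an outer membrane channel, by 0.44 (adjusted p = 0.0399). Aifm1, an inner membrane flavoprotein, fell by 1.17 (adjusted p = 0.00617) at 5 days. Apaf1, the scaffold of the apoptosome, rose by 1.25 (SE 0.23, adjusted p = 0.00359) at 5 days. In DKO, Cycs fell by 0.70 (adjusted p = 0.0262) at 1 day, and at 5 days Apaf1 rose by 0.98 (adjusted p = 0.0273) while Endog fell by 1.02 (adjusted p = 0.0398) and Vdac3 by 0.59 (adjusted p = 0.0203). Cardiomyocyte markers fell in the same arrays, with list medians between -0.30 and -0.51 in the 4 comparisons of I/R with sham, and their part in these values was not tested.

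Among other caspases, Casp6 fell by 0.60 (adjusted p = 0.0313) at 1 day in FFFF, and Casp2 rose by 0.56 (SE 0.13, adjusted p = 0.0107) at 5 days. The initiator Casp8 had differences from 0.14 to 1.01 in the 4 comparisons with sham and did not pass, and neither Casp2 nor Casp6 passed against sham in DKO. Of 5 inhibitors of apoptosis, Birc3 rose by 0.88 (adjusted p = 0.0116) at 1 day and 0.96 (adjusted p = 0.0044) at 5 days in FFFF. Birc5, which also acts in cell division, rose by 0.67 (adjusted p = 0.0176) at 5 days in FFFF, and the differences of Xiap, Birc2 and Birc6 lay between -0.13 and 0.35. The values of Birc5 were low, between 3.82 and 4.80. None of the 5 passed in DKO, against 5.11% of all features at 1 day and 6.07% at 5 days.

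Of 13 genes of p53 and its targets, 3 passed in FFFF at 1 day, against 11.7% of all features. Trp53 rose by 0.93 (SE 0.20, adjusted p = 0.013) and Cdkn1a, the cell cycle inhibitor p21, by 2.46 (SE 0.45, 5.49-fold, adjusted p = 0.0067), while Ccng1 fell by 0.62 (adjusted p = 0.00735). In DKO at 1 day Cdkn1a alone passed, with a rise of 1.78 (SE 0.45, adjusted p = 0.0406). At 5 days in FFFF, Phlda3 rose by 1.00 (adjusted p = 0.0313) and Ccng1 fell by 0.40 (adjusted p = 0.0284), and none of the 13 passed in DKO. Among 14 upstream regulators of the BH3-only genes and Mcl1, Stat3 rose in FFFF by 0.71 (SE 0.09, adjusted p = 0.00116) and in DKO by 0.65 (SE 0.09, adjusted p = 0.00299) at 1 day. Atf4 rose by 0.86 (adjusted p = 0.038) in FFFF at 1 day, and Nfkb1 by 0.63 (adjusted p = 0.00142) and Stat3 by 0.30 (adjusted p = 0.0305) at 5 days. Usp9x, a deubiquitinase that stabilises MCL1, rose by 0.37 (adjusted p = 0.013) in DKO at 5 days. Without the array labelled replicate 1 of DKO at 1 day, Stat3 kept its call in DKO at that time (0.56, adjusted p = 0.0158), and Cycs and Cdkn1a did not pass (-0.64 and 1.48, adjusted p = 0.115 and 0.17). Without all 3 DKO arrays of low Esr1, which leaves 1 DKO array at 5 days, none of the 5 DKO calls at 5 days passed, with Bcl2a1b at 1.86, Apaf1 at 0.79, Endog at -0.73, Vdac3 at -0.36 and Usp9x at 0.34 (adjusted p = 0.436 to 0.651). No gene of these 6 lists passed in a comparison of the genotypes, in level or in response, where at most 2 of all features did.

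**Figure D5:**
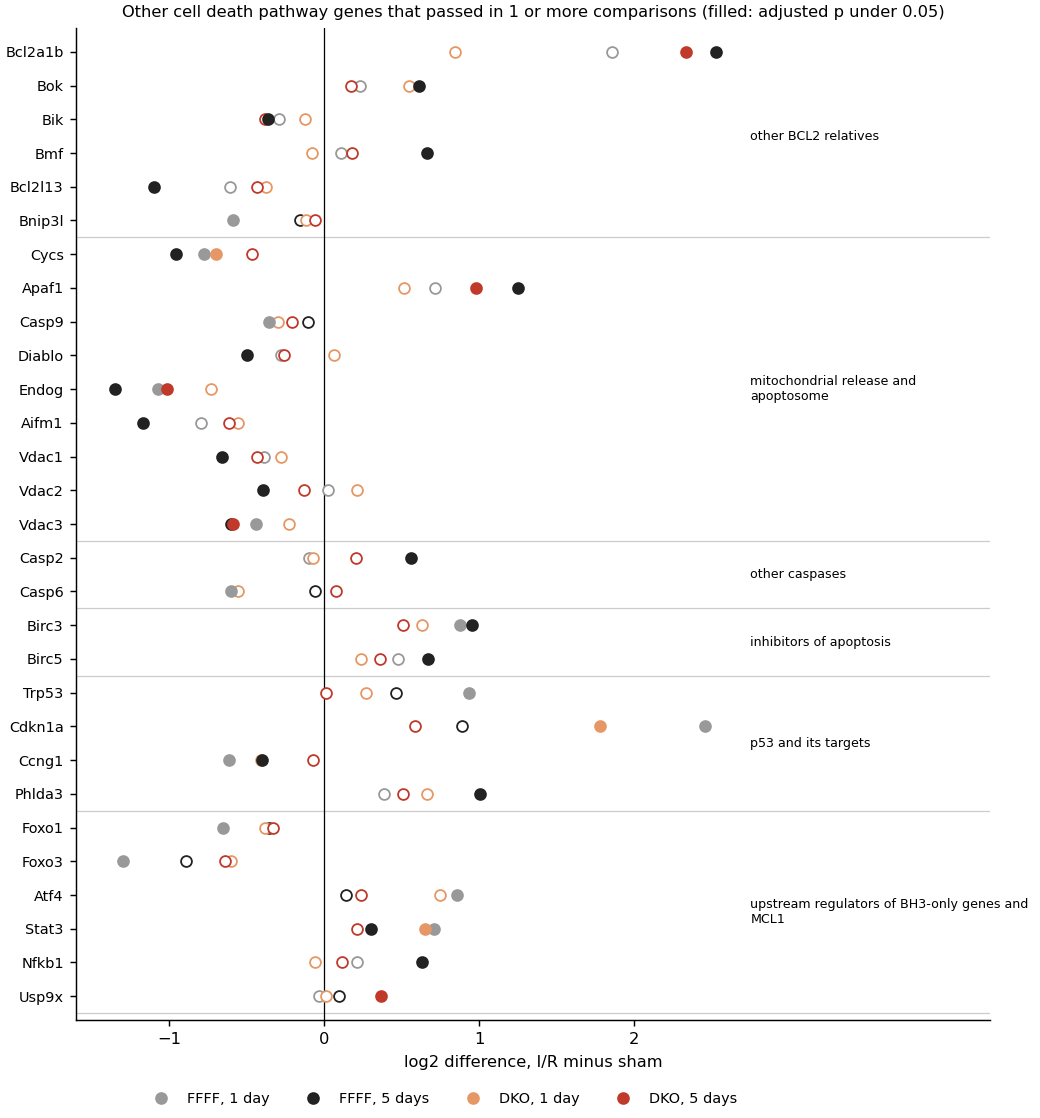
Log2 difference between I/R and sham (horizontal axis) for genes of the 6 pathway lists that passed in 1 or more of the 4 comparisons, at 1 and 5 days in FFFF and DKO; filled points passed at an adjusted p under 0.05. Cdkn1a at 1 day and Bcl2a1b at 5 days lie farthest to the right, and Cycs and Endog lie left of 0 in all 4 comparisons.

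The features whose values over the 18 arrays were most like those of each member are given by Pearson's r, as a description of arrays that share groups. Bcl2 was most like Esr1 (r = 0.811), Cox8a (0.786) and Pigq (0.782), and Esr1 is the gene that splits the DKO arrays as given above. Bcl2l1 was most like Klhl2 (0.941), Trib1 (0.916) and Dclre1b (0.914), and Bcl2l11 most like Slfn5 (0.902), Osbpl8 (0.890) and Ing4 (0.887). Pitpna (0.959) and B4galt5 (0.958) were among the features most like Bax, and Bak1 was most like Cdt1 (0.926), Tubb2a (0.925) and Spire1 (0.919). The closest features of Mcl1, Bid and Bad were Prkx (0.881), Dpm2 (0.917) and Tbc1d20 (0.853). For Bbc3 and Pmaip1, with low values, they were Vmn1r91 (0.834) and Stt3b (0.778).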

How the data were processed

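RNA of left ventricle was hybridised to Affymetrix mouse gene 2.0 ST arrays, 18 in all. The authors deposited log2 values from RMA (no version is stated), quantile normalized over the arrays and mapped through a custom probe definition (version 18) in which every Entrez gene has 1 feature; the arrays were deposited singly. The values ran from 3.49 to 13.93 and every array had the same median (4.852). The number of arrays limits the precision. Symbols came from the platform table for 23281 features and from the gene reference alone for 556, Bax among them; 642 had none. Groups follow the sample labels.

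All features were fitted in one linear model of the 6 group means (R 4.3.3, limma 3.58.1, lmFit and eBayes, 12 residual degrees of freedom), with Benjamini-Hochberg adjustment over all 24479 features and a threshold of 0.05. No feature was filtered out. The fit was tested on simulated data. The authors' own test was an analysis of variance at 0.01. Promoter windows were RefSeq sequence (GRCm38.p6), and the array files give no coordinates.

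The members and the gene lists were chosen with earlier results of these data known. All members are named in each comparison; from each pathway list, called genes with the smallest p, up to 4 a list and comparison, and all genes of a list of 5 or fewer; and for each member the 3 features closest by Pearson's r, Esr1 among them. Camk2d and Camk2g are named as the deleted genes. Markers are given as lists. A few genes that this rule would name are not reported here. The model was refitted with array weights, sex as a covariate, the replicate number as a block, only the groups being compared, a mean-variance trend (robust or not), no moderation (analysis of variance per gene), arrays centred on their medians or quantile normalized again, features above the 40th percentile in at least 3 arrays, a threshold of 0.01, and each array left out; fits without the array labelled replicate 1 of DKO at 1 day or without the DKO arrays with Esr1 under 6 were added after the data were seen. With those DKO arrays left out, 1 DKO array remained at 5 days and was assumed to vary like the other groups.

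The replicate numbers were checked for pairing. Deviations of equal-numbered arrays from their group means correlated at 0.382, 0.529 and 0.360 between FFFF and DKO at 1 day, and in 1 of 15 pairs of groups every such correlation was over 0.1. The numbers were taken to pair the arrays there, from the values alone. The block used the same replicate effects for all 6 groups, so these arrays were not tested as pairs. It changed no member's call in that comparison, but 0 features passed there without it, so this shows little.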

Additional observations from a re-analysis of the deposited data

Results flagged for a closer look

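Bcl2 was singled out because its arrays lay on opposite sides of sham in the genotypes: at 5 days after I/R all 3 FFFF arrays were above all FFFF sham arrays, and all 3 DKO arrays were below all DKO sham arrays. Neither change passed on its own (0.41, adjusted p = 0.0666 in FFFF, and -0.34, adjusted p = 0.171 in DKO). The DKO response minus the FFFF response was -0.75 on the log2 scale (SE 0.20), with an adjusted p of 0.999 in limma, so the difference did not pass. It was -0.72 with an adjusted p of 0.881 without the DKO arrays that had low Esr1, which leaves 1 DKO array at 5 days.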

How the results depend on the processing

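All 11 called member differences kept their direction in every alternative fit. Of 2129 alternative values of the 110 member differences, 72 had another sign, none of them passing in either fit and none above 0.23 in size. Counts of called members moved more. At a threshold of 0.01 they were 0 for FFFF I/R 1 day, 0 for FFFF I/R 5 days, 1 for FFFF 5 days against 1 day, 0 for DKO I/R 1 day and 0 for DKO 5 days against 1 day. Array weights gave 6 for FFFF I/R 5 days, 2 for DKO 5 days against 1 day and 1 (Bcl2) for DKO against FFFF sham. Sex as a covariate gave 1 for FFFF I/R 5 days (Bax) and 1 for FFFF 5 days against 1 day. Fits of the compared groups alone gave 1 for FFFF I/R 5 days, 0 for FFFF 5 days against 1 day, 1 for DKO I/R 1 day, 1 for DKO I/R 5 days, 0 for DKO 5 days against 1 day and 1 for the sham genotypes. Gene-wise analysis of variance gave 1 for FFFF 5 days against 1 day and 1 for DKO I/R 1 day. Without the array labelled replicate 1 of DKO at 1 day, the compared groups alone gave 0 for DKO I/R 1 day and 0 for DKO 5 days against 1 day. Without the DKO arrays of low Esr1, 1 DKO array was left at 5 days. In DKO at 1 day Bcl2l1 then differed from sham by 1.33 and Bcl2l11 by -0.78. Bcl2 in sham hearts stayed 0.93 higher in DKO, as no sham array was left out. The cause was not tested, other than that fits of fewer arrays have fewer residual degrees of freedom.

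Leaving out single arrays gave 0 to 4 called members for FFFF I/R 1 day (4 with all arrays), 0 to 4 for FFFF I/R 5 days (2), 1 to 2 for FFFF 5 days against 1 day (2), 0 to 4 for DKO I/R 1 day (2), 0 for DKO I/R 5 days, 0 to 1 for DKO 5 days against 1 day (1) and 0 for all genotype comparisons. No member passed for FFFF I/R 1 day without FFFF sham replicate 2 or FFFF I/R 1 day replicate 1, and without FFFF sham replicate 3 Bcl2l1 alone did. No member passed for FFFF I/R 5 days without replicate 3 of that group, nor for DKO I/R 1 day without DKO sham replicate 2 or the array labelled replicate 1 of DKO at 1 day. Over all features, other settings called 599 to 4942 for FFFF I/R 1 day (2870 as reported), 1027 to 8066 for FFFF I/R 5 days (4475), 261 to 4335 for FFFF 5 days against 1 day (1531), 0 to 2727 for DKO I/R 1 day (1252), 16 to 4528 for DKO I/R 5 days (1487), 13 to 2292 for DKO 5 days against 1 day (1124), 1 to 34 for the sham genotypes (2), and at most 10 in the other genotype comparisons.

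With the replicate number as a block, Bak1 at 1 day in FFFF had an adjusted p of 0.0532 and was no longer called (3 members called); no other member call changed. With 3 arrays a group, effects of Bbc3, Pmaip1, Bid and Bad at low values are the least certain.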
